A study of Mus musculus with 18 samples.

Results

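The mouse mitochondrial genome carries 37 annotated genes, and all of them were found among the 47069 genes of each deposited table. They were taken by symbol, as every gene whose GENCODE name starts with mt-, and comprised 13 mRNAs, 2 rRNAs and 22 tRNAs. All lie on chrM of GRCm38, 28 on the heavy-strand transcript side (annotated +) and 9 on the other strand, which holds mt-Nd6 and 8 tRNAs. The values came from 18 single oocytes of wild type C57BL/6 mice, prepared as SMART-seq2 libraries after the nucleus had been spun out of a soft lysate, so that cytoplasmic RNA was sequenced. There were 6 groups of 3 oocytes. GV-6wk and GV-12m are germinal vesicle oocytes, the immature stage arrested in meiotic prophase, of mice aged 6 weeks and 12 months. IVM-MII-6wk and IVM-MII-12m are metaphase II oocytes of the same ages matured in vitro, and MSC-IVM-MII-6wk and MSC-IVM-MII-12m are metaphase II oocytes that had been co-cultured with cells labelled MSC, an abbreviation the labels do not spell out. The labels name no mouse for any oocyte, so each group counts as 1 sample, no p-value is given, and the spread shown is between single oocytes.

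Mitochondrial DNA codes for a small set of core subunits of the respiratory chain. The mt-Nd genes give subunits of complex I (NADH dehydrogenase), mt-Cytb the cytochrome b of complex III, mt-Co1 to mt-Co3 the catalytic core of complex IV (cytochrome c oxidase), and mt-Atp6 and mt-Atp8 subunits of the ATP synthase. The rRNAs and tRNAs serve translation inside the organelle. Each strand is transcribed as a long precursor from which the tRNAs are cut out. Most of the released mRNAs receive short poly(A) tails inside the mitochondrion, apart from the cytoplasmic machinery that lengthens and shortens the tails of maternal mRNAs. mt-Atp8 and mt-Atp6 overlap and remain on 1 bicistronic mRNA, as do mt-Nd4l and mt-Nd4. The oocyte is the source of nearly all mitochondria of the embryo, and its nuclear genes are largely silent during maturation.

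Reads of several members cannot be assigned by sequence alone, because chromosome 1 carries an insertion of mitochondrial DNA with annotated unprocessed pseudogenes. In that stretch of the minus strand Gm28661, Gm10925, Gm28437, Gm10222 and Gm28439 match mt-Co2, mt-Atp6, mt-Co3, mt-Nd4l and mt-Nd4 at every aligned base. These alignments cover 681, 678, 783, 294 and 876 bases. Gm28438 matches mt-Nd3 at 344 of 345 bases, and Gm29216 matches the end of mt-Co1 at 486 of 492 bases. The pairs printed here show what separates gene and copy. Sequences are from GENCODE M21 on GRCm38, written 5′ to 3′. For the first 120 bases of mt-Nd3 (chrM:9459-9806, + strand) and Gm28438 (chr1:24612775-24613119, − strand) the capital marks the single difference, T3C, counted from 1 at the first base of the gene.
mt-Nd3: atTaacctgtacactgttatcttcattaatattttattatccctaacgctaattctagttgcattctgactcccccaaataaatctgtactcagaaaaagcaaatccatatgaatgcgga
Gm28438: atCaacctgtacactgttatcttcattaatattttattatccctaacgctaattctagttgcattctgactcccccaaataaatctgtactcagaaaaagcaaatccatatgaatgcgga
The whole of mt-Nd4l (chrM:9877-10173, + strand) differs from Gm10222 (chr1:24612407-24612700, − strand) in length, the capitals marking the 3 bases that the copy's model leaves out.
mt-Nd4l: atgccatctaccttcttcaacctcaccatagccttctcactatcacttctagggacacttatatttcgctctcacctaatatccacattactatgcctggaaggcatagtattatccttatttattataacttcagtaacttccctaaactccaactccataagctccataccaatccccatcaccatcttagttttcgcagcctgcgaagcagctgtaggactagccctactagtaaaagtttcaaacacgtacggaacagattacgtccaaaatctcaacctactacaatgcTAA
Gm10222: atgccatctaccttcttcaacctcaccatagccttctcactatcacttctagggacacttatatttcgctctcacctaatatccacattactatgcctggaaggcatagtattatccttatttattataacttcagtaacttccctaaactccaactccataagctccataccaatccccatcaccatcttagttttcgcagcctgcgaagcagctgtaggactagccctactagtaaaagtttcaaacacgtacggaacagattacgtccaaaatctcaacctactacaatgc
The first 100 bases of mt-Co3 (chrM:8607-9390, + strand) and Gm28437 (chr1:24613189-24613971, − strand) are the same, so no capital is set.
mt-Co3: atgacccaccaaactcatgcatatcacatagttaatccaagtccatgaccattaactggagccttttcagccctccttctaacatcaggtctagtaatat
Gm28437: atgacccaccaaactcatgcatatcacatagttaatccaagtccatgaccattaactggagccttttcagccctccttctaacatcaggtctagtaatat

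The deposited expected counts, which divide ambiguous reads between genes, were split unevenly between such pairs. Of the counts of mt-Nd4l and Gm10222 summed over 18 oocytes, 98.8% stood on the copy, and 93.4% did for mt-Co3 and Gm28437. The copy's share was 60.8% for mt-Nd3, 11.1% for mt-Co2, 10.9% for mt-Co1 and 4.64% for mt-Atp6. Gm28439, identical to mt-Nd4 over 876 bases, was listed at 0 in every oocyte, against 158057 counts on mt-Nd4. The split was not the same from oocyte to oocyte. For mt-Co2 the copy held from 0 to 40.5% and for mt-Nd3 from 41.6 to 88.7%, whereas for mt-Co3 it held 85.9 to 98.4%. In all, the 7 copies took 6.54 to 18.7% of the counts of members and copies together. Values for mt-Co1, mt-Co2, mt-Co3, mt-Nd3, mt-Nd4, mt-Nd4l and mt-Atp6 are therefore given with the counts of the copy added, a choice made after the split had been seen. Where reads of a nuclear transcript are among them, they cannot be told apart. Windows of 50 bases shared with the nuclear genes of the annotation were absent from mt-Nd1, mt-Nd6, mt-Cytb, mt-Atp8, mt-Rnr1 and every tRNA, and made up 1.04% of mt-Rnr2, 7.61% of mt-Nd5 and 8.19% of mt-Nd2.

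**Figure D1:**
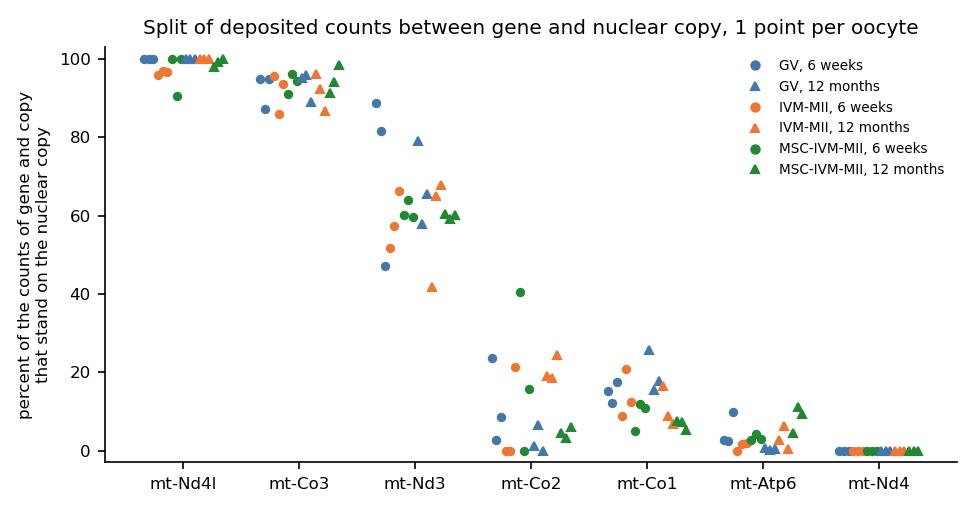
Each point is 1 oocyte, with the percent of the counts of a mitochondrial gene and its chromosome 1 copy that the deposited table gives to the copy on the y axis and the gene on the x axis. Circles are 6 weeks and triangles 12 months. mt-Nd4l and mt-Co3 stand at or above 85.9% in all 18 oocytes, mt-Nd4 at 0, and mt-Co2 spreads up to 40.5%.

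Only 16 of the 37 members passed the filter on low counts (edgeR's filterByExpr) that left 12037 genes: the 13 mRNAs, both rRNAs and mt-Ts1. Transfer RNAs are short, folded and mostly without poly(A) tails, and libraries of this kind catch few of them. Of the 22 tRNAs, 5 had no count in any oocyte (mt-Tv, mt-Tl1, mt-Tn, mt-Tr and mt-Ts2), and none of the other 17 reached 100 counts over all oocytes. mt-Ts1, a serine tRNA, was the highest in each 12-month group with 89 counts in all, followed by mt-Tq, a glutamine tRNA, with 45, and mt-Tg, a glycine tRNA, with 28. The last pair was named after the values had been seen. mt-Ts1 had 6, 6 and 7 counts in the GV-12m oocytes, 22, 7 and 3 in IVM-MII-12m and 7, 28 and 3 in MSC-IVM-MII-12m. mt-Ts1 (chrM:6870-6938) and mt-Tq (chrM:3772-3842) lie on the − strand and share their last 3 bases, in capitals, with the neighbouring gene of the other strand, mt-Co1 and mt-Ti.
mt-Ts1: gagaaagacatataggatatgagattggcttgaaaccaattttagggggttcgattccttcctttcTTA
mt-Tq: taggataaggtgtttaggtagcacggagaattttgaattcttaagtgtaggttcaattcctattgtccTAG
Whether the counting used strand is not given in the sources used here, so their counts cannot be told apart from antisense reads of those neighbours.

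Every tRNA count was in a 12-month oocyte, and all 9 oocytes of 6 weeks were at 0. The libraries of the ages differed for short genes in general. At 6 weeks the shortest gene of any kind with a count had 171 to 204 bases, and at 12 months 60 to 69. The deposited effective length was 0 for genes of up to 170 to 178 bases at 6 weeks, and of up to 90 to 124 bases at 12 months. An age difference in tRNAs cannot be told apart from this difference between the libraries, and none is given.

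The libraries held 1914090 to 9193623 expected counts. All 10 oocyte markers of the list used (Zp1 to Zp3, Gdf9, Bmp15 and others) had counts in every group, with sums of 8799 to 55324 CPM (counts scaled to a common library size, with edgeR's TMM factors). GV-12m oocyte 3 stood apart, with 2128 CPM over 16 cumulus and granulosa markers, led by Inha at 917 and Gja1 at 674 CPM, and with the lowest oocyte marker sum of the GV oocytes, 9045 CPM. The other GV oocytes had granulosa sums of 72.0 to 254 CPM and the metaphase II oocytes 0 to 80.2 CPM. Foxl2, Amh, Amhr2, Fshr, Ptgs2 and Tnfaip6 were at 0 in all 4 metaphase II groups. Of 10 mesenchymal markers, Thy1, Eng and Nt5e were at 0 in all oocytes and the sum was at most 14.2 CPM. Of 8 blood and immune markers, Ptprc, Adgre1 and Cd79a were at 0 throughout and the sum was at most 20.8 CPM.

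Members took a larger share of the counts in most metaphase II oocytes than in GV oocytes. The 37 members held 2.01, 0.917 and 3.70% of the counts in the GV-6wk oocytes, 3.22, 11.7 and 10.1% in IVM-MII-6wk and 3.03, 8.65 and 7.66% in MSC-IVM-MII-6wk. At 12 months the shares were 2.45, 1.90 and 3.65% in GV, 12.2, 14.9 and 6.04% after IVM and 13.2, 11.4 and 8.17% with co-culture. All 6 metaphase II oocytes of 12 months were above all 6 GV oocytes of either age, while at 6 weeks the first oocyte of each metaphase II group lay below the highest GV oocyte. Group means were 2.21 ± 1.40%, 8.34 ± 4.51% and 6.45 ± 3.001% at 6 weeks and 2.66 ± 0.894%, 11.1 ± 4.55% and 10.9 ± 2.52% at 12 months, in the same order (SD, n = 3 oocytes). Exact binomial 95% intervals of single oocytes, which cover counting error only, were narrow, for example 0.907 to 0.926% for the lowest. The number of genes with at least 1 count ran the other way, with 13007 to 15988 in GV and 8579 to 13090 in metaphase II oocytes, and its part in the difference was not tested. These are shares of each library, so a larger amount of mitochondrial RNA and a smaller amount of all other RNA in the oocyte cannot be told apart. How much mitochondrial RNA the soft lysate kept at each stage, after the nucleus was spun out, was not measured. Its part in the difference was not tested. Poly(A) tail lengths were not measured, and their part in the difference was not tested.

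The low metaphase II oocytes of 6 weeks shared a title prefix. The sample titles carry 5 prefixes, none in both ages, and what they stand for is not stated. The Y01 oocytes had 3.22 and 3.03%, and the 4 Y03 oocytes 7.66 to 11.7%. Genes detected numbered 11783 and 13090 in those Y01 and 9013 to 10092 in those Y03 oocytes. The GV oocytes of 6 weeks showed the same order, with 2.01 and 0.917% under Y01 and 3.70% under Y03. Within prefixes the difference from GV was 4.48 percentage points for IVM-MII-6wk, against 6.13 over all oocytes, and 3.01 against 4.24 for MSC-IVM-MII-6wk. At 12 months it was 7.03 against 8.39 for IVM-MII and 8.69 against 8.23 for MSC-IVM-MII. The mean difference within prefixes was above 0 in all 4 comparisons.

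**Figure D2:**
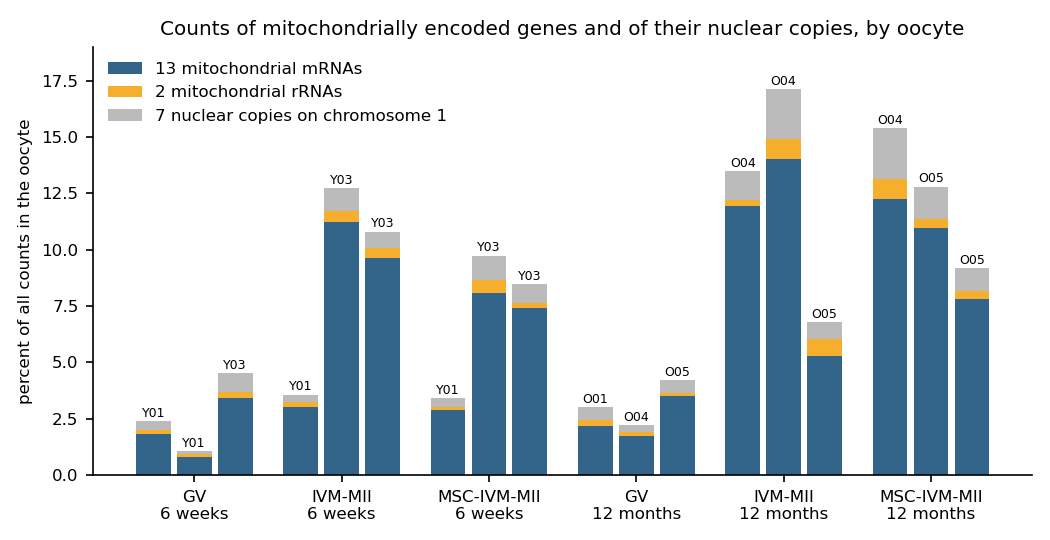
Bars are single oocytes, with the percent of all deposited counts on the y axis. Blue is the 13 mRNAs, yellow the 2 rRNAs and grey the 7 nuclear copies. The letters above each bar are the title prefix. With copies, bars range from 1.05% (GV-6wk oocyte 2) to 17.1% (IVM-MII-12m oocyte 2).

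Per length, the members formed a steep order that was much the same at both stages. With copies, mt-Atp6 was highest in all 18 oocytes, at a median of 29.1% of the mitochondrial total per kilobase in the 6 GV and 36.9% in the 12 metaphase II oocytes. mt-Cytb came next in 17 oocytes, at 21.1 and 28.8%. In GV oocytes mt-Co3 (14.8%), mt-Co2 (10.4%), mt-Co1 (9.45%) and mt-Nd1 (9.37%) followed, and the last 3 of these overlapped in range. The step from mt-Nd1 (6.42 to 13.9%) to mt-Rnr2 (1.80 to 4.97%) was the single place in the GV order where neighbouring ranges did not overlap. In metaphase II oocytes that place was between mt-Cytb (19.3 to 39.2%) and mt-Co3 (5.48 to 15.5%). Lowest at both stages was mt-Nd6, the mRNA of the other strand, at 0.283 and 0.208%, below its heavy-strand neighbour mt-Nd5 (0.623 and 0.586%) in all 18 oocytes. Since the use of strand in counting is not given, mt-Nd6 counts here and below cannot be told apart from antisense reads. Poly(A) tails were not measured, and their part in the place of mt-Nd6 was not tested. In these counts the rRNAs, mt-Rnr1 at 1.92 and 0.875% and mt-Rnr2 at 3.91 and 2.41%, stood below 6 mRNAs at both stages. How well such libraries catch rRNAs beside mRNAs was not measured, so this order is not one of amounts in the oocyte. Annotated lengths were used for all members. The deposited effective length was 4.07 to 23.1 bases for mt-Atp8 and 33.3 to 82.8 bases for mt-Nd4l, so the place of each in the order is uncertain.

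Maturation was compared by the difference of mean log2(CPM + 1) between matured and GV oocytes of the same age. IVM-MII and MSC-IVM-MII oocytes share their GV oocytes, so their values stand side by side and are no support for each other. With copies, the 13 mRNAs had a median difference of 1.63 in IVM-MII-6wk, where the median of all 12037 genes was -0.52. It was 1.54 in IVM-MII-12m (all genes -0.52), 1.52 in MSC-IVM-MII-6wk (-0.29) and 1.93 in MSC-IVM-MII-12m (-0.60). In IVM-MII-6wk, 11 of 13 mRNAs were higher by at least 1 (2-fold), as were 16.7% of all genes, and 3 were higher in each matured oocyte than in each GV oocyte, as were 9.59% of all genes. In IVM-MII-12m, 13 of 13 were past 1 (all genes 16.1%) and 11 did not overlap (all genes 11.3%). MSC-IVM-MII-6wk gave 10 past 1 (21.4% of all genes) and 2 without overlap (14.2%), and MSC-IVM-MII-12m 13 (16.7%) and 12 (10.9%). Within title prefixes, a view added after the data were seen, 11 of 13 were higher without overlap in IVM-MII-6wk (all genes 18.2%), all but mt-Co1 and mt-Co3, and 9 in MSC-IVM-MII-6wk (all genes 24.4%), all but mt-Nd1 and mt-Co1 to mt-Co3. At 12 months, without GV-12m oocyte 1, whose prefix no matured oocyte shares, 12 were in IVM-MII (all genes 17.1%) and 13 in MSC-IVM-MII oocytes (all genes 16.5%). No mRNA was lower in any of the 4 comparisons. Without copies the same 4 medians were 1.79, 1.46, 1.51 and 1.93. Summed granulosa markers were at most 80.2 CPM in matured oocytes and at least 72.0 CPM in GV oocytes, and their part in these differences was not tested. Without GV-12m oocyte 3, the IVM-MII-12m median without copies was 1.65 and the MSC-IVM-MII-12m median 1.89.

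Among the complex I genes, mt-Nd4 and mt-Nd4l, which share a bicistronic mRNA and overlap by 7 bases (chrM:9877-10173 and chrM:10167-11544), were higher in all 12 metaphase II oocytes than in all 6 GV oocytes. Of all genes, 2.95% were higher without overlap in that pooled view and 13.4% lower. mt-Nd4 was at 866, 344 and 1109 in GV-6wk, 1117, 2909 and 2688 in IVM-MII-6wk and 1321, 2533 and 2765 in MSC-IVM-MII-6wk (CPM). At 12 months it was at 784, 595 and 1005 in GV-12m, 2105, 3808 and 1230.5 in IVM-MII-12m and 3726, 4198 and 1794 in MSC-IVM-MII-12m. The lowest metaphase II oocyte (1117 CPM) lay just above the highest GV oocyte (1109 CPM), so the gap is narrow. For mt-Nd4l the levels were 47.3, 26.3 and 76.6 in GV-6wk, 93.1, 207 and 153 in IVM-MII-6wk and 126, 189.9 and 169 in MSC-IVM-MII-6wk, and at 12 months 42.8, 45.4 and 49.8 in GV-12m, 186, 399.8 and 109 in IVM-MII-12m and 402.5, 218 and 104.5 in MSC-IVM-MII-12m, nearly all from counts given to the copy. The highest GV oocyte (76.6 CPM) was again close to the lowest metaphase II oocyte (93.1 CPM), which was IVM-MII-6wk oocyte 1. In the deposited counts mt-Nd4l itself was at 0 in 12 of 18 oocytes, so no fold is given for it without the copy.

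mt-Nd2, a membrane subunit of complex I, had the largest mean difference of the mt-Nd genes at 6 weeks after IVM, 2.23 on the log2 scale or 5.97-fold in mean CPM, but its groups overlapped. Its CPM values were 483, 235 and 821 in GV-6wk, 529.8, 5147 and 3518 in IVM-MII-6wk and 783, 2824 and 2434 in MSC-IVM-MII-6wk. At 12 months they were 777, 503.9 and 578 in GV-12m, 2416, 3933 and 1378 in IVM-MII-12m and 3741, 2348 and 1433 in MSC-IVM-MII-12m, with no overlap, and the difference was 1.95 after IVM and 1.93 with co-culture. mt-Nd3 differed by 2.004 and 1.52 at 6 weeks (IVM-MII and MSC-IVM-MII) and by 2.46 and 2.42 at 12 months, mt-Nd5 by 1.79, 1.51, 1.28 and 1.45 in that order. mt-Nd6 differed by 1.41, 1.06, 1.37 and 1.04, and it overlaps the heavy-strand mt-Nd5 by 14 bases on opposite strands. mt-Nd1, the first mRNA after the rRNAs, had differences that were the smallest of the 7 complex I genes in 3 of the 4 comparisons, at 1.21, 0.73, 1.01 and 1.43.

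Cytochrome b and ATP synthase subunit 6 were the most abundant members and were among those with the larger differences. mt-Cytb was at 5736, 1786 and 12212 in GV-6wk, 10305, 40081 and 39514 in IVM-MII-6wk and 10657, 30898 and 33277 in MSC-IVM-MII-6wk (CPM). At 12 months mt-Cytb was at 10108, 6635 and 7608 in GV-12m, 65631, 61216 and 20656 in IVM-MII-12m and 29099, 40932 and 29673 in MSC-IVM-MII-12m, 6.06-fold higher in mean after IVM (49168 ± 24790 against 8117 ± 1792 CPM, SD, n = 3 oocytes) and 4.09-fold higher with co-culture. At 12 months no matured oocyte overlapped with GV, whereas at 6 weeks oocyte 1 of each matured group, both with the prefix Y01, lay below GV-6wk oocyte 3. mt-Atp6 followed the same pattern, at 4679, 1436 and 9822 in GV-6wk, 7565, 34928 and 31718 in IVM-MII-6wk and 6673, 23738 and 24802 in MSC-IVM-MII-6wk, and at 12 months 8421, 5086 and 5959 in GV-12m, 41426, 48279.9 and 15273 in IVM-MII-12m and 31919.8, 30030.1 and 21695 in MSC-IVM-MII-12m. Its log2 differences were 2.33 and 1.96 at 6 weeks and 2.30 and 2.12 at 12 months.

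At 6 weeks mt-Co1 and mt-Co3 of complex IV had smaller differences than mt-Cytb and mt-Atp6. mt-Co1 was at 4292, 1844 and 6148 in GV-6wk, 5059, 6501 and 5962 in IVM-MII-6wk and 3974, 9446 and 6859 in MSC-IVM-MII-6wk, and at 12 months at 3858, 3135 and 5015 in GV-12m, 6953, 15644 and 5623 in IVM-MII-12m and 15284, 21186 and 8283 in MSC-IVM-MII-12m CPM, with differences of 0.67 and 0.80 at 6 weeks and 1.11 and 1.82 at 12 months. mt-Co3 was at 2835, 1025 and 6955 in GV-6wk, 2738, 8339 and 4639.9 in IVM-MII-6wk and 2394, 9001 and 6501 in MSC-IVM-MII-6wk, and at 12 months at 6938, 3015 and 3271 in GV-12m, 10598, 17225 and 5861 in IVM-MII-12m and 15951, 9866 and 5942 in MSC-IVM-MII-12m. Its groups overlapped in all 4 comparisons, with differences of 0.80, 0.93, 1.32 and 1.26. mt-Co2 differed by 1.30, 1.19, 1.54 and 1.61. The rRNAs overlapped between matured and GV oocytes in all 4 comparisons. mt-Rnr1, the 12S rRNA of the small mitoribosomal subunit, differed by 0.82, 0.23, 1.48 and 0.70, and mt-Rnr2, the 16S rRNA of the large subunit, by 1.03, 0.81, 1.51 and 1.22.

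The make-up of the mitochondrial total, which does not depend on library scaling, also differed between the stages. The total here is the sum of the 37 members and the 7 copies, and no all-gene background applies to it. Shares of a total are tied to each other, so a higher share of an abundant member lowers the others. mt-Atp6 took 18.7, 14.6 and 19.7% in GV-6wk, 22.1, 28.7 and 29.4% in IVM-MII-6wk and 21.7, 23.5 and 27.0% in MSC-IVM-MII-6wk. At 12 months it took 19.9, 19.9 and 20.02% in GV-12m, 28.3, 26.0 and 23.2% in IVM-MII-12m and 24.3, 22.9 and 26.4% in MSC-IVM-MII-12m. All 12 metaphase II oocytes (21.7 to 29.4%) lay above all 6 GV oocytes (14.6 to 20.02%), and mt-Atp6 was the single member of 15 for which this held. Without copies the ranges overlapped, at 16.3 to 24.2% in GV and 23.0 to 30.8% in metaphase II.

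mt-Cytb took 22.9, 18.2 and 24.6% in GV-6wk, 30.1, 32.9 and 36.6% in IVM-MII-6wk and 34.6, 30.6 and 36.2% in MSC-IVM-MII-6wk. At 12 months its share was 23.8, 26.0 and 25.6% in GV-12m, 44.9, 33.0 and 31.3% in IVM-MII-12m and 22.1, 31.2 and 36.1% in MSC-IVM-MII-12m. MSC-IVM-MII-12m oocyte 1, at 22.1%, was the single metaphase II oocyte inside the GV range (18.2 to 26.0%). mt-Co3 ran the other way, with 11.3, 10.4 and 13.98% in GV-6wk, 7.99, 6.85 and 4.29% in IVM-MII-6wk and 7.77, 8.90 and 7.07% in MSC-IVM-MII-6wk, and at 12 months 16.4, 11.8 and 11.0% in GV-12m, 7.25, 9.28 and 8.89% in IVM-MII-12m and 12.1, 7.53 and 7.22% in MSC-IVM-MII-12m. The same MSC-IVM-MII-12m oocyte 1 was the single metaphase II oocyte within the GV range (10.4 to 16.4%).

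mt-Nd1 was also lower in share, at 8.52, 13.3 and 9.78% in GV-6wk, 6.24, 7.30 and 8.26% in IVM-MII-6wk and 4.40, 7.57 and 6.53% in MSC-IVM-MII-6wk, and at 12 months 6.15, 7.96 and 9.41% in GV-12m, 4.12, 4.87 and 3.37% in IVM-MII-12m and 5.53, 7.27 and 5.14% in MSC-IVM-MII-12m. Its groups did not overlap in 3 of the 4 maturation comparisons, and in MSC-IVM-MII-12m they did. The share of mt-Co1 was 17.1, 18.8 and 12.4% in GV-6wk, 14.8, 5.34 and 5.52% in IVM-MII-6wk and 12.9, 9.34 and 7.46% in MSC-IVM-MII-6wk, and at 12 months 9.10, 12.3 and 16.8% in GV-12m, 4.75, 8.43 and 8.53% in IVM-MII-12m and 11.6, 16.2 and 10.1% in MSC-IVM-MII-12m. It was lower without overlap in IVM-MII-12m, while the other 3 matured groups overlapped with GV.

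mt-Rnr1 took 1.19, 1.86 and 1.85% in GV-6wk, 0.852, 0.878 and 0.820% in IVM-MII-6wk and 0.599, 0.877 and 0.543% in MSC-IVM-MII-6wk, and at 12 months 1.82, 2.102 and 0.639% in GV-12m, 0.497, 1.07 and 1.82% in IVM-MII-12m and 1.23, 0.491 and 0.40% in MSC-IVM-MII-12m. mt-Rnr2 took 6.06, 7.87 and 4.75% in GV-6wk, 5.45, 2.99 and 3.23% in IVM-MII-6wk and 4.23, 5.21 and 2.36% in MSC-IVM-MII-6wk, and at 12 months 7.32, 6.32 and 2.85% in GV-12m, 1.43, 4.19 and 9.12% in IVM-MII-12m and 4.60, 2.38 and 3.45% in MSC-IVM-MII-12m. At 6 weeks the mt-Rnr1 shares of all matured oocytes were below those of GV. At 12 months they overlapped. GV-12m oocyte 3, the oocyte with the high granulosa markers, had the lowest rRNA share of the GV oocytes (4.02% for both rRNAs of the 37 members, against 8.08 to 11.2% in the other 5), and IVM-MII-12m oocyte 3 had the highest mt-Rnr1 share of the metaphase II oocytes.

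mt-Atp8, at well under 1% of the total, had shares of 0.169, 0.146 and 0.119% in GV-6wk, 0.222, 0.338 and 0.249% in IVM-MII-6wk and 0.156, 0.257 and 0.202% in MSC-IVM-MII-6wk, and at 12 months 0.254, 0.223 and 0.204% in GV-12m, 0.757, 0.327 and 0.390% in IVM-MII-12m and 0.511, 0.229 and 0.255% in MSC-IVM-MII-12m. It was higher without overlap after IVM at both ages, by 0.89 and 1.02 on the log2 scale, like mt-Atp6 on the same mRNA. mt-Nd3 had 0.285, 0.409 and 0.399% in GV-6wk, 0.381, 0.578 and 0.383% in IVM-MII-6wk and 0.366, 0.475 and 0.279% in MSC-IVM-MII-6wk, and at 12 months 0.561, 0.315 and 0.286% in GV-12m, 0.264, 0.792 and 0.740% in IVM-MII-12m and 1.34, 0.281 and 0.482% in MSC-IVM-MII-12m. MSC-IVM-MII-12m oocyte 1 was above the rest, and this oocyte had the lowest total count of all, 1914090.

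mt-Co2 took 6.90, 6.49 and 7.34% in GV-6wk, 5.56, 5.72 and 4.21% in IVM-MII-6wk and 4.95, 6.33 and 5.34% in MSC-IVM-MII-6wk, and at 12 months 9.998, 7.32 and 6.09% in GV-12m, 3.98, 6.66 and 7.51% in IVM-MII-12m and 9.55, 5.07 and 5.93% in MSC-IVM-MII-12m, lower without overlap in both matured groups of 6 weeks. mt-Nd6 took 0.117, 0.255 and 0.143% in GV-6wk, 0.126, 0.163 and 0.111% in IVM-MII-6wk and 0.104, 0.161 and 0.102% in MSC-IVM-MII-6wk, and at 12 months 0.151, 0.142 and 0.167% in GV-12m, 0.0860, 0.107 and 0.126% in IVM-MII-12m and 0.0859, 0.109 and 0.0786% in MSC-IVM-MII-12m, lower without overlap in both matured groups of 12 months. The mt-Nd2 share was 1.93, 2.40 and 1.65% in GV-6wk, 1.55, 4.23 and 3.26% in IVM-MII-6wk and 2.54, 2.79 and 2.65% in MSC-IVM-MII-6wk, and at 12 months 1.83, 1.98 and 1.94% in GV-12m, 1.65, 2.12 and 2.09% in IVM-MII-12m and 2.85, 1.79 and 1.74% in MSC-IVM-MII-12m. mt-Nd4 had 3.46, 3.51 and 2.23% in GV-6wk, 3.26, 2.39 and 2.49% in IVM-MII-6wk and 4.29, 2.51 and 3.01% in MSC-IVM-MII-6wk, and at 12 months 1.85, 2.33 and 3.38% in GV-12m, 1.44, 2.05 and 1.87% in IVM-MII-12m and 2.83, 3.20 and 2.18% in MSC-IVM-MII-12m. For mt-Nd5 it was 1.20, 1.44 and 0.953% in GV-6wk, 1.16, 1.45 and 1.10% in IVM-MII-6wk and 1.04, 1.35 and 1.16% in MSC-IVM-MII-6wk, and at 12 months 0.834, 1.08 and 1.45% in GV-12m, 0.443, 0.884 and 0.866% in IVM-MII-12m and 0.999, 1.12 and 0.540% in MSC-IVM-MII-12m. The shares of mt-Nd4, mt-Nd4l and mt-Nd5 overlapped with GV in all 4 comparisons, and that of mt-Nd2 in 3.

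**Figure D3:**
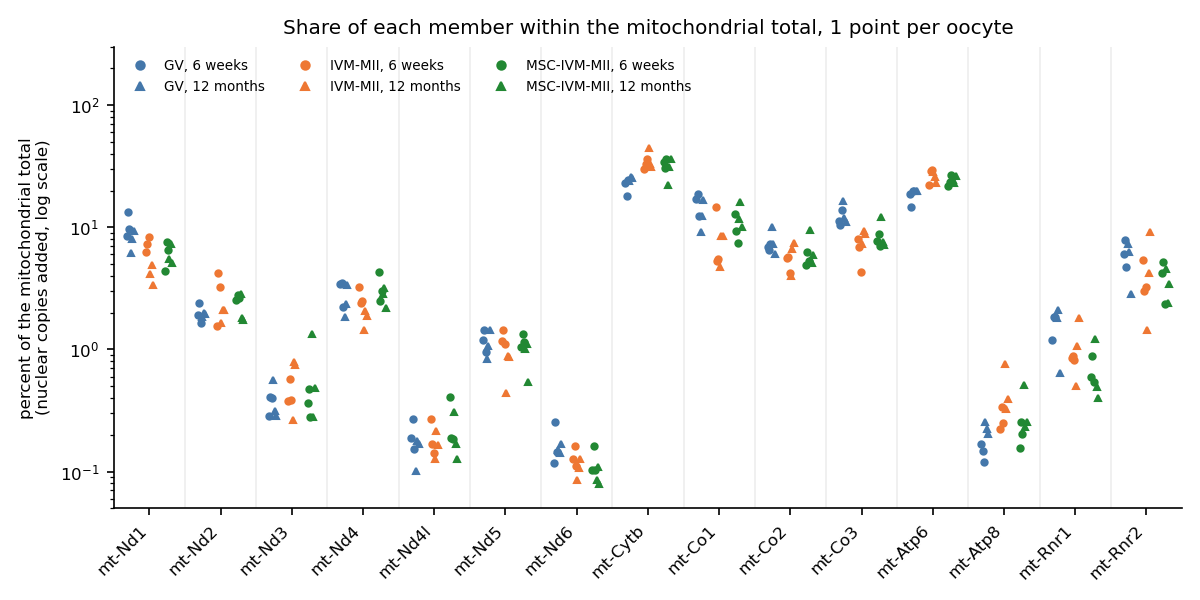
Each point is 1 oocyte, with the percent of the mitochondrial total (copies added) on a log axis and the 15 mRNAs and rRNAs on the x axis. Blue is GV, orange IVM-MII, green MSC-IVM-MII, circles 6 weeks and triangles 12 months. mt-Atp6 is the gene whose metaphase II points, from 21.7%, all lie above its GV points, up to 20.02%.

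Of 7 ratios between members, chosen after the shares had been seen, 2 separated all GV from all metaphase II oocytes. mt-Atp6 and mt-Co3 lie side by side (chrM:7927-8607 and chrM:8607-9390), overlap by 1 base, and are released from each other without a tRNA between them. The ratio of mt-Atp6 to mt-Co3, with copies, was 1.65, 1.40 and 1.41 in GV-6wk and 1.21, 1.69 and 1.82 in GV-12m oocytes. It was 2.76, 4.19 and 6.84 in IVM-MII-6wk, 2.79, 2.64 and 3.81 in MSC-IVM-MII-6wk, 3.91, 2.80 and 2.61 in IVM-MII-12m and 2.001, 3.04 and 3.65 in MSC-IVM-MII-12m. All metaphase II oocytes (3.42 ± 1.26, SD, n = 12) were above all GV oocytes (1.53 ± 0.226, n = 6). This ratio rests on adding the copies, since 93.4% of the mt-Co3 counts stood on Gm28437. The ratio of mt-Cytb to mt-Nd1 involves no gene with a shared 50-base window. It was 2.69, 1.37 and 2.51 in GV-6wk, 3.88, 3.27 and 2.72 in GV-12m, 4.82, 4.51 and 4.43 in IVM-MII-6wk and 7.87, 4.04 and 5.54 in MSC-IVM-MII-6wk. In IVM-MII-12m it was 10.9, 6.77 and 9.29 and in MSC-IVM-MII-12m 4.01, 4.30 and 7.02. Again all 12 metaphase II oocytes (4.01 to 10.9) were above all 6 GV oocytes (1.37 to 3.88), by a small margin at the boundary. Of the 5 other ratios computed, none separated all oocytes. That of mt-Rnr2 to mt-Rnr1 was 2.57 to 5.08 in GV and 2.88 to 8.61 in metaphase II, and that of mt-Nd5 to mt-Nd6 5.54 to 10.2 and 5.15 to 11.6. All mRNAs over both rRNAs gave 9.29 to 27.7 and 8.14 to 50.8.

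**Figure D4:**
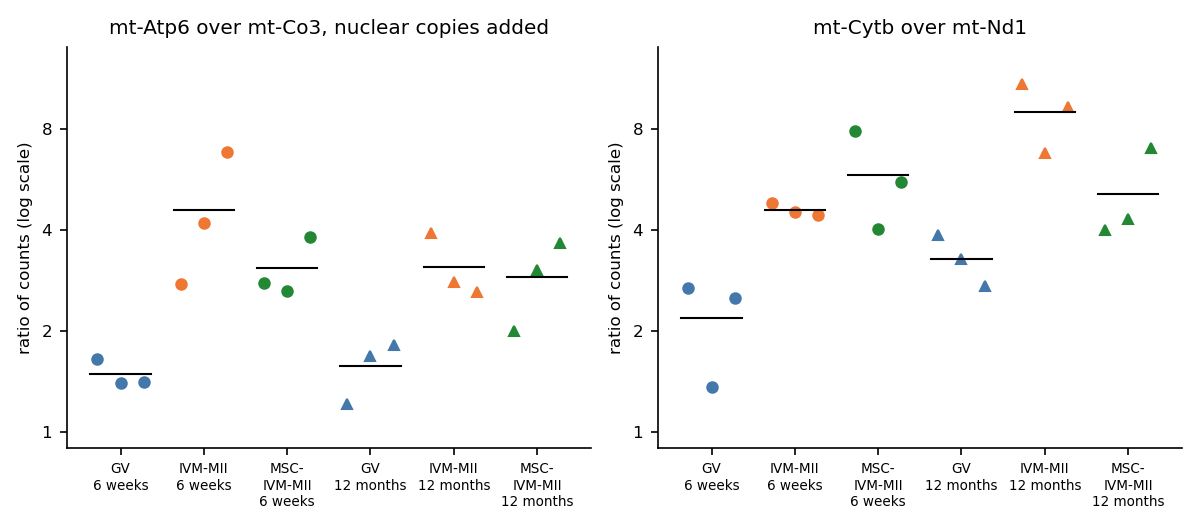
Each point is 1 oocyte and each line a group mean, with the ratio of counts on a log axis and the 6 groups on the x axis. Left is mt-Atp6 over mt-Co3 with copies, right mt-Cytb over mt-Nd1. GV points stay at or below 1.82 and 3.88, metaphase II points at or above 2.001 and 4.01.

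Between ages the mRNAs overlapped in CPM in all 3 groups. With copies the median of the 13 mRNAs (12 months minus 6 weeks) was 0.43 for GV, 0.55 for IVM-MII and 0.74 for co-cultured oocytes, beside all-gene medians of 0.12, 0.16 and -0.12. The number higher by at least 1 was 1, 2 and 4 of 13, beside 9.46%, 18.1% and 7.73% of all genes. No mRNA was without overlap in any of the 3, beside 3.67%, 6.24% and 2.94% of all genes higher and 3.51%, 2.37% and 4.85% lower. Leaving out 1 oocyte turned the sign of the median without copies in GV (-0.01 without GV-6wk oocyte 2) and in IVM-MII (-0.11 without IVM-MII-6wk oocyte 1). No title prefix occurs at both ages, so age and whatever the prefixes stand for cannot be told apart.

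mt-Atp8 had the highest age difference of the members in GV and IVM-MII oocytes, 1.09 and 1.45, and had 1.39 with co-culture. Of its 204 bases (chrM:7766-7969, + strand) shown here because part of them is shared, the last 43, in capitals, are also the start of mt-Atp6.
mt-Atp8: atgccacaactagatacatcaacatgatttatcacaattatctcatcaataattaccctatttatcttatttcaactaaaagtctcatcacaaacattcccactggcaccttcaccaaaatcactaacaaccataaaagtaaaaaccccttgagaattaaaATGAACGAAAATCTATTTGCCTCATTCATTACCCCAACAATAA
The deposited effective length of mt-Atp8 was 4.07 to 7.65 bases at 6 weeks and 7.94 to 23.1 at 12 months. The 9 retained genes under 250 bases, mt-Atp8 and mt-Ts1 among them, had a median age difference of 1.84 in GV, against 0.10 over genes of at least 1000 bases. In IVM-MII these were 1.28 and 0.14, and in MSC-IVM-MII 1.36 and -0.14. Without the members, the other 7 short genes had medians of 2.18, 0.87 and 0.18 in the same order, and mt-Atp8 lay below their median in GV and above it in both matured groups. The part of gene length in the mt-Atp8 differences was not tested.

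Of the shares within the total, mt-Atp6 was higher without overlap in GV-12m than in GV-6wk (19.9 against 17.7% in mean, values by oocyte above), as was mt-Atp8. In IVM-MII oocytes mt-Nd1, mt-Nd4 and mt-Nd5 took lower shares at 12 months, 4.12 against 7.27%, 1.79 against 2.71% and 0.731 against 1.24%, all without overlap. In MSC-IVM-MII oocytes every share overlapped between the ages.

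Co-culture was compared with plain maturation at each age. At 6 weeks the 13 mRNAs had a median of -0.28 (MSC-IVM-MII minus IVM-MII, with copies, all genes 0.20). None was past 1 in either direction (16.2% of all genes were higher and 5.22% lower by that much) and none was without overlap (3.86% higher, 1.51% lower). At 12 months the median was -0.02 (all genes -0.10), again with none past 1 (10.3% higher, 15.2% lower) and none without overlap (2.63% higher, 3.99% lower). Differences ranged from -0.62 to 0.15 at 6 weeks and from -0.67 to 0.71 at 12 months. At both ages mt-Atp8 was the lowest of the mRNAs, at -0.62 and -0.67. With 3 oocytes a group this does not show that co-culture left the members alone: leaving out 1 oocyte moved the median without copies from -0.96 to 0.29 at 6 weeks and from -0.41 to 0.44 at 12 months. In shares, 3 of the 15 mRNAs and rRNAs were higher without overlap in MSC-IVM-MII-12m than in IVM-MII-12m, and none was lower. They were mt-Nd1, mt-Nd4 and mt-Co1, at 5.98 against 4.12%, 2.74 against 1.79% and 12.6 against 7.24% in mean. The share of mt-Cytb, which overlapped, was 29.8 against 36.4% in mean, and shares of a total are tied to each other. At 6 weeks all shares overlapped. Between MSC-IVM-MII-12m and IVM-MII-6wk the median was 0.55 (all genes 0.04), with 2 of 13 past 1 (14.9% of all genes). mt-Co1, at 1.26, was the single mRNA without overlap (3.56% of all genes).

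The respiratory complexes also contain many subunits coded in the nucleus, whose mRNAs are cytoplasmic. Whether the lysate held these and the mitochondrial mRNAs equally well was not measured. Over 71 nuclear subunits of complexes I, III, IV and V, the median log2(CPM + 1) of an oocyte was 6.85 to 8.63 in GV and 2.34 to 4.91 in metaphase II. The median of the 13 mitochondrial mRNAs, with copies, was 8.43 to 10.12 in GV and 10.13 to 12.33 in metaphase II. Thus these medians, pooled over the complexes, stood in opposite order between the stages. Neither median overlapped between GV and metaphase II oocytes, though the mitochondrial one, with copies, missed overlap by a narrow margin. Without copies the mitochondrial median did overlap. Its middle mRNA was then mt-Nd2 in both GV-6wk oocyte 3 (821 CPM) and IVM-MII-6wk oocyte 1 (529.8 CPM). Lists were counted by genes without overlap and past 1. After IVM, 31 of 36 complex I subunits were lower and 1 higher at 6 weeks, and 26 and 1 at 12 months, where 28.3% and 25.5% of all genes were lower and 8.34% and 10.0% higher. For complex III it was 8 and 7 of 9 lower, for complex IV 6 and 4 of 11 and for complex V 11 and 11 of 15, with none higher. Ndufa9, an accessory subunit of complex I, was at 404.1 ± 157 CPM in GV-6wk and 2.81 ± 2.66 in IVM-MII-6wk oocytes (SD, n = 3 oocytes), and Cox7c of complex IV at 289.7 ± 129 and 3.17 ± 3.98. Uqcrq of complex III was at 343 ± 169 and 5.95 ± 5.17, and Atp5o of complex V at 439 ± 232 and 2.70 ± 0.824. Medians of these 4 lists after IVM were -4.24, -3.31, -1.98 and -3.89 at 6 weeks and -3.07, -2.87, -0.69 and -3.70 at 12 months. The median of all genes was -0.52 at both ages, so the complex IV list at 12 months lay near it. Its 4 of 11 lower stand beside 25.5% of all genes. Complex II, which has no mitochondrially coded subunit, had medians of -2.67 and -1.94, and 3 of its 4 genes were lower at each age.

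**Figure D5:**
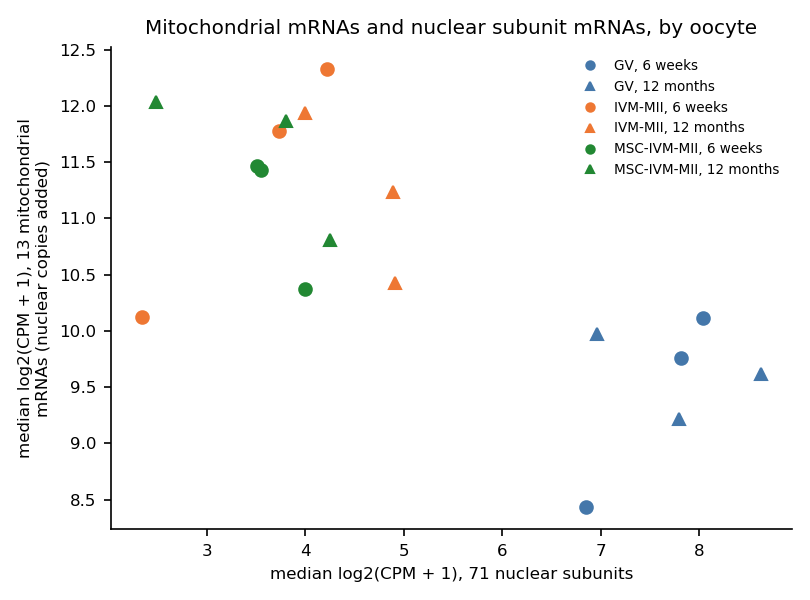
Each point is 1 oocyte, with the median log2(CPM + 1) of 71 nuclear subunits on the x axis and of the 13 mitochondrial mRNAs with copies on the y axis. GV oocytes (blue) lie at the lower right, at or above 6.85 on x, and metaphase II oocytes at the left, at or below 4.91.

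Genes that act on mitochondrial RNA and DNA are nuclear too. Of 10 genes of mitochondrial transcription, 3 were lower and 1 higher after IVM at 6 weeks, and 3 and 2 at 12 months. The median difference of this list after IVM was 0.11 and 0.20, beside -0.52 for all genes at both ages. At each age 6 of the 10 were above 0 and 4 below. Of all genes 28.3% and 25.5% were lower and 8.34% and 10.0% higher, so the share lower in this list, and in that of mtDNA maintenance given last, is near the background. Polrmt, the mitochondrial RNA polymerase, was at 73.0 ± 8.45 CPM in GV-6wk and 4.76 ± 8.25 in IVM-MII-6wk, and Tfb2m, which opens the promoter with it, at 8.22 ± 7.23 and 35.1 ± 14.7. At 12 months Polrmt was at 100.7 ± 70.3 and 13.2 ± 18.2, and Tfb2m at 8.29 ± 2.79 and 34.2 ± 5.22. The polymerase and its partner stood in opposite order between the stages at both ages. Mrpl12, a mitoribosomal protein reported to bind the polymerase, was at 296 ± 122 and 12.7 ± 11.6 at 6 weeks. Of 34 measured genes of RNA processing, stability and decay, 13 were lower and 2 higher at 6 weeks, and 10 and 5 at 12 months, with medians of -1.02 and -0.95. At 12 months the share lower in this list, too, is near the 25.5% of all genes. Slirp, the partner of Lrpprc in stabilising mitochondrial mRNAs, was at 88.3 ± 35.5 and 0.1502 ± 0.260 CPM, and Hsd17b10, a subunit of mitochondrial RNase P, at 45.8 ± 30.8 and 3.16 ± 3.85 (6 weeks). Trnt1, which adds CCA to tRNA ends, was higher, at 57.5 ± 6.85 and 247 ± 32.3. Of 15 measured genes of mtDNA maintenance, 5 were lower and 2 higher at 6 weeks and 4 and 1 at 12 months. Tfam, which packages mtDNA and starts its transcription, was at 20.5 ± 11.6 and 4.95 ± 1.36 CPM at 6 weeks, Ssbp1, the single-strand binding protein, at 72.9 ± 26.2 and 19.7 ± 10.3, and Rrm2b, a ribonucleotide reductase subunit, was higher, at 89.0 ± 32.6 and 231 ± 49.6. With co-culture, the counts lower and higher were 4 and 0 (6 weeks) and 3 and 2 (12 months) for transcription, 13 and 4 and 10 and 5 for RNA processing, and 4 and 1 and 4 and 2 for mtDNA maintenance, where 27.3% and 28.0% of all genes were lower and 12.3% and 9.99% higher. These are counts of mRNAs as caught by the libraries. Poly(A) tail lengths were not measured, so a change in tail and a change in amount cannot be told apart. No value here ties the lists to the members.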

How the data were processed

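RNA of 18 single mouse oocytes in 6 groups of 3 was measured with SMART-seq2. Per the file headers, each deposited table gives, for 47069 genes, a length, an effective length, an expected count and a TPM value. The expected counts (estimated reads per gene) and the TPM values (scaled for gene length and library size) were made by the authors. Per the submitters' processing notes the tools included FastQC 0.11.8, Trim Galore 0.4.5, TopHat2 2.1.1 and Cufflinks on mm10 (GRCm38.p5). The tool that made the expected counts is not given in the sources used here.

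Genes were matched to GENCODE M21 on GRCm38 (46488 of 47069). Expected counts were filtered with filterByExpr of edgeR 4.0.16 under R 4.3.3. TMM factors then gave CPM, and differences were taken on log2(CPM + 1). Scaling with DESeq2 1.42.0 was an alternative. No test was run, since the labels name no animal and a group counts as 1 sample. "Without overlap" means that every oocyte of a group lay above every oocyte of the other. The differences and this rule were run on simulated counts with known fold changes. The simulated spread between oocytes was fixed and not fitted to these data. The simulation therefore does not show how often groups here would fail to overlap without a difference. Shares and intervals used Python 3.11.15 with NumPy 2.4.6, pandas 2.3.3 and SciPy 1.17.1, and figures Matplotlib 3.10.9.

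All mRNAs and rRNAs were named, tRNAs with at least 100 counts or the highest of a group, and of other lists those furthest from the median of all genes. The rule asked for deposited shares of the top and bottom 3 members. Shares with copies were given in their place, after the data had been seen. The members and lists were chosen with earlier results of these data known.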

Additional observations from a re-analysis of the deposited data

How the results depend on the processing

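Of 36 other settings of the mitochondrial share in the 10 comparisons, 32 moved it by less than the spread between oocytes. The other 4 used deposited TPM, which gave 12.2 percentage points for IVM-MII-6wk minus GV-6wk, 13.8 for IVM-MII-12m minus GV-12m, 8.96 for MSC-IVM-MII-6wk minus GV-6wk and 14.9 for MSC-IVM-MII-12m minus GV-12m, larger in the same direction; the cause was not tested. All 86 settings of the mRNA medians stayed within that spread. Of 172 settings of member shares 11 moved by more and 1 reversed. A change of sign was counted as reversed only where the groups did not overlap, so other signs changed too. Mean shares of mt-Co1 in MSC-IVM-MII-12m and GV-12m were 13.4 and 12.1% without copies, and 12.6 and 12.7% with them. Adding copies also changed the sign for mt-Nd5 in IVM-MII-6wk and mt-Nd2 in IVM-MII-12m, each minus GV. The reversed one, mt-Nd4l, IVM-MII-6wk minus GV-6wk, was -0.00925 with its copy added, and the cause was not tested. Without the copy mt-Nd4l was at 0 in all GV-6wk oocytes and at 17.3, 20 and 17.65 counts in IVM-MII-6wk. The copy held 100% of the pair in GV-6wk and 95.8 to 97.0% in IVM-MII-6wk. Leaving out 1 oocyte at a time gave share differences (percentage points) of 4.45 to 8.69 for IVM-MII-6wk minus GV-6wk, 6.46 to 10.9 for IVM-MII-12m minus GV-12m, 3.13 to 5.95 for MSC-IVM-MII-6wk minus GV-6wk, 7.10 to 9.59 for MSC-IVM-MII-12m minus GV-12m, -0.191 to 1.20 for GV between ages. For the rest they were 0.154 to 5.22 for IVM-MII between ages, 2.74 to 5.81 for MSC-IVM-MII between ages, -4.46 to -0.187 for MSC-IVM-MII minus IVM-MII at 6 weeks, -2.67 to 1.77 for the same at 12 months, -0.00894 to 4.23 for MSC-IVM-MII-12m minus IVM-MII-6wk. The median of the 13 mRNAs (log2, without copies) then ran from 1.32 to 2.41 for IVM-MII-6wk minus GV-6wk, 1.05 to 1.68 for IVM-MII-12m minus GV-12m, 1.10 to 2.14 for MSC-IVM-MII-6wk minus GV-6wk, 1.59 to 2.17 for MSC-IVM-MII-12m minus GV-12m, -0.01 to 0.85 for GV between ages. For the rest it ran from -0.11 to 0.87 for IVM-MII between ages, 0.11 to 1.01 for MSC-IVM-MII between ages, -0.96 to 0.29 for MSC-IVM-MII minus IVM-MII at 6 weeks, -0.41 to 0.44 for the same at 12 months, -0.38 to 0.77 for MSC-IVM-MII-12m minus IVM-MII-6wk. Replicate numbers follow accession order and pair no oocytes, so title prefixes served as blocks, with share differences of 4.48, 3.01, 7.03 and 8.69 and medians of 1.28, 1.07, 1.51 and 2.05 for maturation (IVM-MII and MSC-IVM-MII at 6 weeks, then at 12 months). Co-culture minus IVM-MII gave -1.47 points at 6 weeks and 1.66 at 12 months, the latter of opposite sign to -0.163 over all oocytes. Within prefixes the mRNAs higher without overlap numbered 11 in place of 3 (IVM-MII-6wk) and 9 in place of 2 (MSC-IVM-MII-6wk), and 12 and 13 in place of 11 and 12 at 12 months.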
